A study of Rattus norvegicus with 4 samples.

Results

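The Rab GTPase genes of a rat neuroendocrine cell line were compared between a clone with low and a clone with high REST, the transcriptional repressor of neural genes. The members are the genes of the count files named Rab followed by a number and, where present, a letter, 52 of 25810 genes in all. The 49 with at least 20 reads summed over the 4 libraries are described, and 48 of these passed the filter on low counts and were tested among 13726 genes. Of these 49, 6 belong to the Rabs of regulated secretion (Rab3a, Rab3c, Rab3d, Rab26, Rab27a and Rab27b), and 43 belong to other steps of membrane traffic. Rab27b, with 22 reads, lay just inside the limit of 20 reads and Rab25, with 19, just outside it.

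The cells were PC12, a line from a rat pheochromocytoma, a tumour of the adrenal medulla that stores catecholamines in dense-core granules. No treatment is named for either group, the wild-type clone wtPC12 with low REST and the clone hrPC12 with high REST, and RNA-Seq was made on 2 libraries of each. hrPC12 is 1 clone that arose spontaneously, so REST cannot be told apart from anything else that differs between the clones. The labels do not say that the libraries of a clone came from separate cultures, so p values measure only the spread between libraries. An exact permutation test of 2 against 2 libraries could not give a p below 0.333, and all p values come from the quasi-likelihood test of edgeR, adjusted over the 13726 genes by the Benjamini-Hochberg method. Genes were called DE where the log2 FC (hrPC12/wtPC12) passed 2 in either direction with an adjusted p under 0.01. In bulk RNA, fewer cells with a transcript and less transcript per cell cannot be told apart.

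Rab proteins are small GTPases that mark the compartments of the secretory and endocytic pathways. Exchange factors load them with GTP, the active forms recruit effectors such as motors and tethers, and GTPase activating proteins switch them off. The Rab3 and Rab27 proteins sit on secretory vesicles and granules, where their effectors govern docking and release, as in chromaffin cells, the cells from which PC12 derives.

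Reads on genes numbered 20975027 and 21999191 in the wtPC12 libraries and 27246502 and 21634943 in those of hrPC12, and 3 reads, the limit that a count of 0 allows, stood for 2.54 to 3.49 normalized counts. Rest itself held 43.0 and 132 normalized counts in wtPC12 and 964 and 915 in hrPC12 (log2 FC 3.42, SE 0.57, adjusted p = 0.0115), so it was higher in both hrPC12 libraries as the labels say, although its adjusted p missed the threshold. Without wtPC12 replicate 1 the adjusted p of Rest was 0.00383, at a log2 FC of 2.80, and without wtPC12 replicate 2 it was 0.0140, at a log2 FC of 4.44. Of 12 chromaffin markers 10 were found, with summed levels of 816881 to 955560 normalized counts in wtPC12 and 47608 to 51557 in hrPC12. Chgb (626776 and 687936 in wtPC12) and Th (132838 and 202932) made up most of the wtPC12 sums, and 5 chromaffin markers were lower past both thresholds, while Ddc stood at 20841 and 24196 in wtPC12 and 26281 and 27995 in hrPC12 and the log2 FCs of Gata3 and Slc18a2 were -0.03 and -0.10. The fibroblast markers (8 of 8 found) summed to 16306 and 18082 in wtPC12 and to 92978 and 97501 in hrPC12, and the skeletal muscle markers (7 of 8 found) to 176 and 261 against 4907 and 5345. Single genes carried these sums, Thy1 in wtPC12 (16186 and 17929) and Col3a1 in hrPC12 (83801 and 88143) among the fibroblast markers, of which 4 were higher past both thresholds and Thy1 (log2 FC -0.99) and Dcn (-3.10) had the opposite sign. Among the muscle markers Myod1 (3258 and 3576 in hrPC12) led, 5 were higher past both thresholds and Des had a log2 FC of -1.99. Blood cell markers (9 of 10 found) summed to 36.1 to 101 in every library with Ptprc at 0 to 1 read, and Schwann cell markers (7 of 8 found) to 155 to 257 with Sox10 at 0. The part of these marker differences in the Rab results was not tested.

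For orientation, the start regions of 4 of the members past both thresholds are given with their coordinates, 250 bases before to 30 bases after the annotated start, 5′ to 3′ on the strand of the gene. They were taken from RefSeq on the assembly GRCr8, which is not the build of the counts. The 4 were picked by name and not by a rule on fold change, and Rab40b (log2 FC -3.27) is not among them. Rab3a lies at chr16:18722244-18722523 on the minus strand, Rab3c at chr2:43575914-43576193 on the minus strand, Rab27a at chr8:82663123-82663402 on the plus strand and Rab32 at chr1:6781229-6781508 on the minus strand. Capitals mark the words CAGCACC (on the other strand GGTGCTG) and GGACAG (on the other strand CTGTCC), which occur in the DNA element that REST recognises. In Rab27a they overlap. Each word was marked on its own, without regard to order, relative strand or spacing, so the capitals do not mark REST sites.
Rab3a: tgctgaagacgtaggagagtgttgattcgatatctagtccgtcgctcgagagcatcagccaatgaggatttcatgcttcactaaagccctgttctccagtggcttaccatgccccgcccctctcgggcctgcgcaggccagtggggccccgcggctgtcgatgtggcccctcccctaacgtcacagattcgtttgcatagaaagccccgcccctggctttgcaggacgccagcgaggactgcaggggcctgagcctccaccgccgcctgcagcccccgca
Rab3c: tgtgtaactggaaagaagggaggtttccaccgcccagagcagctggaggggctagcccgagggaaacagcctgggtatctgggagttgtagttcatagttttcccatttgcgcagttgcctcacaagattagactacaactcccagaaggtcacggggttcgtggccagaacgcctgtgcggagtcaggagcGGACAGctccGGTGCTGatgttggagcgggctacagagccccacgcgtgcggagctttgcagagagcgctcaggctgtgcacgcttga
Rab27a: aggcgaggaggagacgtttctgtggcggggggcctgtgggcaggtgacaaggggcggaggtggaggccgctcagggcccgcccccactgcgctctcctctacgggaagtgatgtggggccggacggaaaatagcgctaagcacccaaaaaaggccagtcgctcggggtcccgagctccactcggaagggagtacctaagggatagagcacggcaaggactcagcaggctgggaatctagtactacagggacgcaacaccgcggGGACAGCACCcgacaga
Rab32: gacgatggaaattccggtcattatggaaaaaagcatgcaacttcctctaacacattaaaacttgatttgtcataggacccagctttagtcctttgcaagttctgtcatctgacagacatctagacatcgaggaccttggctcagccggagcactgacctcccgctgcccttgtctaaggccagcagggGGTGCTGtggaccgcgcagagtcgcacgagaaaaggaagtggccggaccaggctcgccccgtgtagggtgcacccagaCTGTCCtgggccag
Both words were searched on both strands, in any order and at any spacing, from 250 bases before to 50 bases after each start. In Rab3c they began 58 and 48 bases before the start, and in Rab3a there was no match, which says only that these letters are not in this window. Over 33469 rat promoters CAGCACC was found in 6.78% and GGACAG in 21.7%, and both in 1.59%. Of the 49 Rab genes 38 were matched in the promoter table by symbol, and among these CAGCACC was found in 6, GGACAG in 11, and both in 3 (Rab3c, Rab27a and Rab32). These 3 are all among the start regions shown above. Rab3c and Rab27a were lower in hrPC12 and Rab32 was higher. Whether REST binds these start regions was not tested.

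Among the Rabs of regulated secretion, 3 of the 5 tested (Rab3a, Rab3c and Rab27a) were lower in hrPC12 past both thresholds, Rab26 passed the adjusted p but not the fold, and Rab3d passed neither. Rab3c, a Rab3 of synaptic and secretory vesicles, held 820 and 1041 normalized counts in wtPC12 and 4.23 and 2.02 in hrPC12, the latter being 5 and 2 reads. The levels did not overlap, and hrPC12 lay close to the limit of detection. The log2 FC was -8.13 (SE 0.44, adjusted p = 0.00054), and the ratio of the reads gave a 291-fold lower level, with a 95% counting interval of 141 to 724. Rab3a, the main Rab3 of neuronal vesicles, held 1923 and 1533 normalized counts in wtPC12 and 339 and 359 in hrPC12. Its mean fell from 1728 ± 276 to 349 ± 14.6 (SD, n = 2), a 4.95-fold difference (log2 FC -2.31, SE 0.23, adjusted p = 0.00246). Rab27a, which docks granules and lysosome-related organelles at the plasma membrane, held 2664 and 2965 against 572 and 566. Its log2 FC was -2.31 (SE 0.19, adjusted p = 0.00135), also 4.95-fold, with a spread between hrPC12 libraries of 4.70 normalized counts (SD) around a mean of 569.

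Rab26, a Rab of granule maturation, held 1975 and 1525 normalized counts in wtPC12 and 642 and 601 in hrPC12. Both hrPC12 libraries were below both wtPC12 libraries, and the log2 FC was -1.49 (SE 0.22, 95% interval -2.07 to -0.92, adjusted p = 0.00879), which is 2.82-fold. Rab3d, a Rab3 also of exocrine granules, held 2608 and 2349 normalized counts in wtPC12 and 2059 and 2215 in hrPC12. Its libraries did not overlap either, but the log2 FC was -0.21 (SE 0.17, 95% interval -0.65 to 0.22, adjusted p = 0.363). Rab27b, the close relative of Rab27a, had 0 reads in both wtPC12 libraries and 15 and 7 in hrPC12. It was filtered out before the test, since it had reads in 1 clone only, and against the limit of 3 reads per library it was at least 3.01-fold higher in hrPC12. A row named RAB3B_RAT, which the name rule does not take, had 37 and 21 reads in wtPC12 and 1 in each hrPC12 library (log2 FC -4.95, SE 0.75, adjusted p = 0.0091). Its read ratio was 34.4-fold, with a counting interval of 9.10 to 291. Rab37 was not analysed here.

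**Figure D1:**
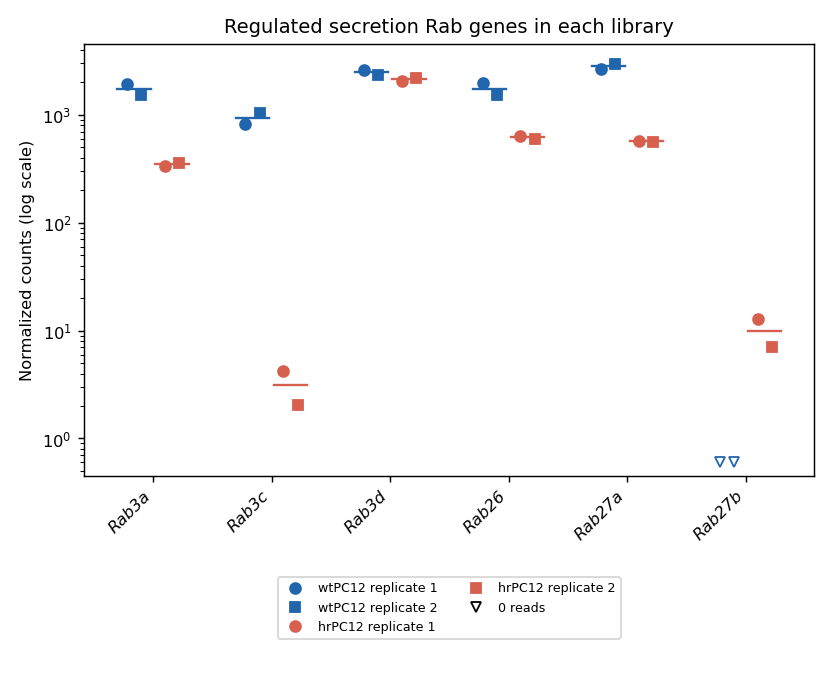
Normalized counts of the regulated secretion Rabs in each of the 4 libraries on a log10 axis, with blue points for wtPC12, red points for hrPC12, lines for the mean of a clone and open triangles for 0 reads. Rab3a, Rab3c, Rab26 and Rab27a lie well apart between the clones, Rab3d lies close, and Rab27b has reads in hrPC12 only.

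The summed level of the 6 secretion Rabs was 9990 and 9412 normalized counts in wtPC12 and 3628 and 3750 in hrPC12, or 9701 ± 409 against 3689 ± 86.0 (SD, n = 2), 2.63-fold lower in hrPC12. Rab3d made up 48.7% and 47.7% of the reads on Rab3a, Rab3c and Rab3d in wtPC12 and 85.7% and 86.0% in hrPC12. Rab3c made up 15.3% and 21.2% in wtPC12 and 0.176% and 0.0786% in hrPC12. As a ratio of reads within each library, Rab3a to Rab3d stood at 0.737 and 0.653 in wtPC12 and at 0.164 and 0.162 in hrPC12. Ratios and shares of reads also depend on gene length, so they are read only between libraries.

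Of the 48 tested Rab genes, 6 were lower and 2 were higher in hrPC12 past both thresholds, 12.5% and 4.17%. Over all tested genes 5.46% were lower and 4.84% higher, so the share of higher Rab genes lay near the background. By adjusted p alone, 8 Rab genes were lower and 2 higher, together 20.8% against 13.1% of all genes. The libraries of the clones did not overlap in 36 of the 48 genes, 21 with wtPC12 above and 15 with hrPC12 above, where 73.5% of all genes did not overlap. The log2 FC ranged from -8.13 to 5.43 with a median of -0.09, beside 0.06 over all genes, and 29 lay within 1 in either direction. The secretion Rabs had a median of -2.31, and the 43 others a median of 0.00 with 3 lower and 2 higher. The difference of the secretion Rabs from the others was not tested, since the members were set by name and are few.

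Which library was used bore on these counts. Without wtPC12 replicate 2, edgeR's quasi-likelihood test called 0 of the Rab genes and 0 of all genes, the smallest adjusted p being 0.0134 over all genes and 0.0140 over the Rab genes. In that setting the median log2 FC was -0.21 over the Rab genes, 0.09 over all genes and -2.23 over the secretion Rabs. Leaving out any other library gave 6 lower and 1 to 3 higher Rab genes.

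**Figure D2:**
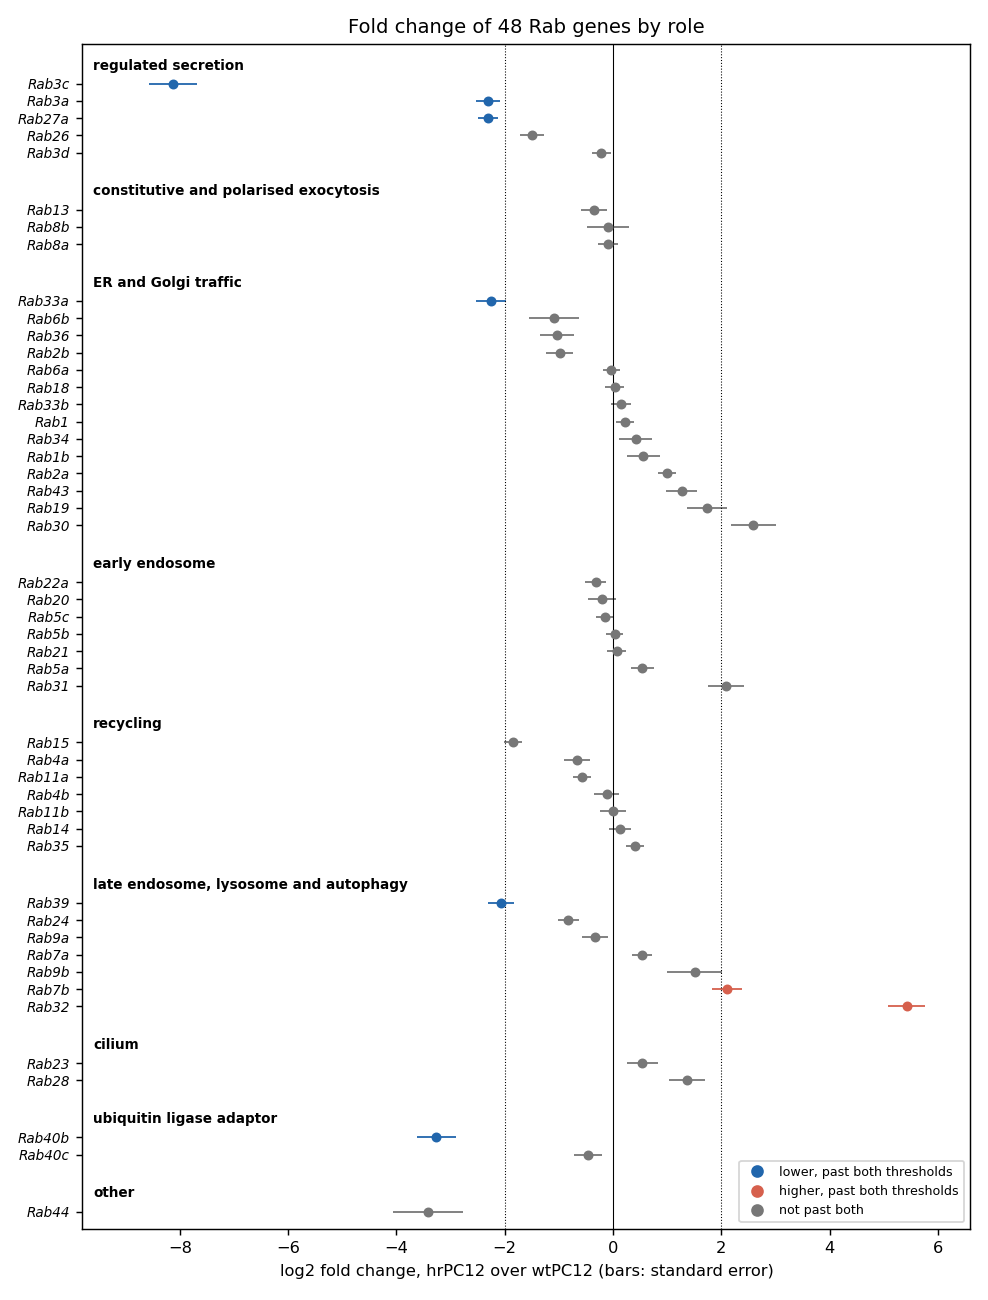
The log2 FC (hrPC12/wtPC12) of the 48 tested Rab genes with bars for the standard error, grouped by the step of traffic they serve. Blue marks genes lower and red genes higher past both thresholds, dotted lines stand at a log2 FC of 2 in either direction, and Rab3c (-8.13) and Rab32 (5.43) lie furthest from 0.

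Beyond the secretion Rabs, 3 other genes fell past both thresholds. Rab40b, a Rab with a SOCS box that serves as adaptor of a ubiquitin ligase, held 511 and 410 normalized counts in wtPC12 and 57.6 and 37.4 in hrPC12. The clones were clearly apart, with a 9.64-fold lower mean in hrPC12 (log2 FC -3.27, SE 0.36, adjusted p = 0.00344). Rab33a, a Golgi and vesicle Rab with neural expression, held 1163 and 843 in wtPC12 and 195 and 227 in hrPC12 (log2 FC -2.25, SE 0.28, adjusted p = 0.00489). Rab39, a Rab of late endosomes and autophagy, held 925 and 1142 in wtPC12 and 235 and 255 in hrPC12 (log2 FC -2.08, SE 0.24, adjusted p = 0.00403). Rab15, a neural Rab of endocytic recycling, fell without reaching the fold threshold. Its levels were 11714 and 11222 normalized counts in wtPC12 and 3085 and 3260 in hrPC12, a 3.61-fold difference (log2 FC -1.85, SE 0.16, adjusted p = 0.0018).

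Higher in hrPC12 past both thresholds were Rab32 and Rab7b, both of late endosomal and lysosomal traffic. Rab32, which directs cargo to lysosome-related organelles, held 14.0 and 20.6 normalized counts in wtPC12 and 732 and 771 in hrPC12. This was the largest rise of the tested Rab genes, 43.0-fold (log2 FC 5.43, SE 0.34, adjusted p = 0.000767). Rab7b, which links late endosomes with the trans-Golgi network, held 76.8 and 88.6 against 372 and 340 (log2 FC 2.10, SE 0.28, adjusted p = 0.00637). Its call was lost without wtPC12 replicate 1 (adjusted p = 0.0145) and without hrPC12 replicate 2 (adjusted p = 0.0104). Rab7a, its ubiquitous relative of late endosomes, had 5937 and 4854 normalized counts in wtPC12 and 7391 and 8259 in hrPC12 (log2 FC 0.54, SE 0.19, adjusted p = 0.0831).

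Rab30 and Rab31 passed the fold but missed the adjusted p. Rab30, a Golgi Rab, held 50.02 and 71.1 normalized counts in wtPC12 and 459 and 272 in hrPC12 (log2 FC 2.59, SE 0.41, adjusted p = 0.0102). Rab31, of transport between the trans-Golgi network and endosomes, held 341 and 307 against 1756 and 999.7 (log2 FC 2.09, SE 0.34, adjusted p = 0.0108). Both were higher in both hrPC12 libraries, with hrPC12 replicate 1 well above replicate 2. Rab44, an atypical large Rab, had 15 and 14 reads in wtPC12 and 2 and 1 in hrPC12 (log2 FC -3.42, SE 0.64, adjusted p = 0.0169). Its read ratio was 11.5-fold with a counting interval of 3.55 to 58.8.

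**Figure D3:**
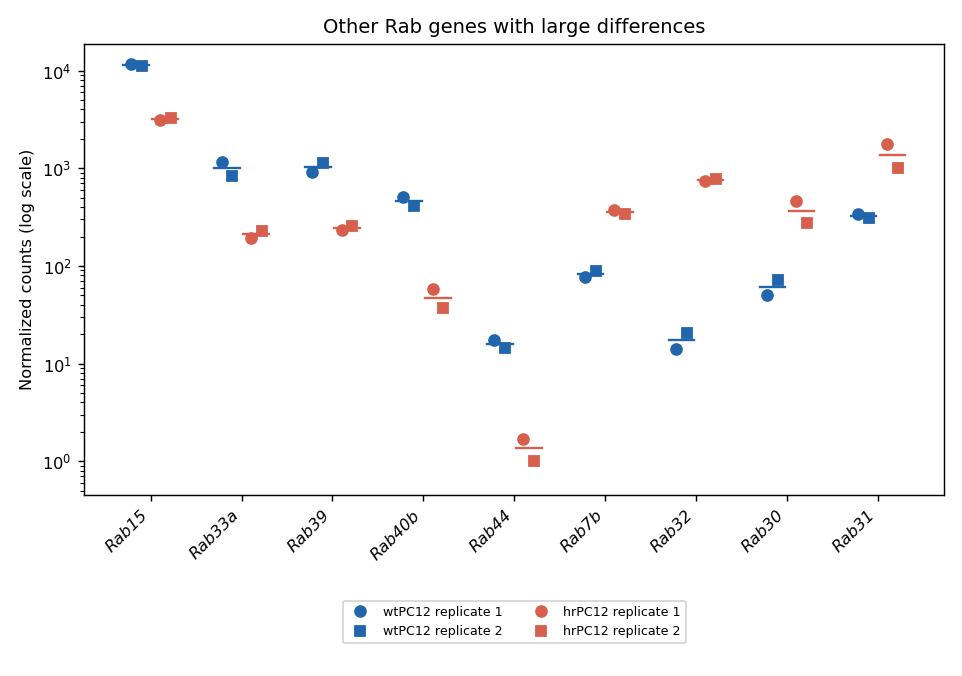
Normalized counts in each library, on a log10 axis, of 9 Rab genes outside regulated secretion with large differences, with blue points for wtPC12, red points for hrPC12 and lines for the mean of a clone. Rab15, Rab33a, Rab39, Rab40b and Rab44 lie lower in both hrPC12 libraries and Rab7b, Rab32, Rab30 and Rab31 higher, and the hrPC12 libraries of Rab30 and Rab31 lie apart from each other.

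The 14 tested Rabs of the ER and Golgi gave 1 lower gene (Rab33a) and none higher, with a median log2 FC of 0.19. Rab6a, of retrograde Golgi traffic, was nearest to 0, at 9814 and 9799 normalized counts in wtPC12 and 9287 and 9896 in hrPC12 (log2 FC -0.03, SE 0.16, 95% interval -0.45 to 0.38). Rab2a and Rab2b, which act between ER and Golgi, went in opposite directions. Rab2a held 1558 and 1423 against 2902 and 3044 (log2 FC 0.996, adjusted p = 0.0123) and Rab2b 470 and 484 against 256 and 227 (log2 FC -0.98, adjusted p = 0.0365), with neither past the threshold. Rab1b, of ER to Golgi transport, has a similarly named row beside it, since RAB1B_RAT holds 1987 to 2897 normalized counts beside the 1222 to 2530 of Rab1b, and summing both rows gave a log2 FC of -0.03 in place of 0.56.

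None of the 7 early endosome Rabs, among which Rab31 was counted, passed both thresholds, and their median log2 FC was 0.03. Rab5b, of early endosome fusion, held 5243 and 5187 normalized counts in wtPC12 and 5222 and 5449 in hrPC12 (log2 FC 0.03, 95% interval -0.36 to 0.43). The 7 recycling Rabs had a median of -0.12, with Rab15 the only one at an adjusted p under 0.01. Rab11b, of recycling endosomes, held 4270 and 2908 against 3397 and 3786 (log2 FC 0.00, 95% interval -0.60 to 0.61). Rab11a and Rab4a, of slow and fast recycling, had log2 FCs of -0.57 and -0.66 with adjusted p values of 0.0563 and 0.0888. The 3 Rabs of constitutive and polarised exocytosis had a median of -0.10, from Rab13 of junctions (-0.35, adjusted p = 0.313) to Rab8a of polarised transport (-0.09, 95% interval -0.56 to 0.38).

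The 7 late endosome, lysosome and autophagy Rabs gave 1 lower and 2 higher genes, with a median log2 FC of 0.54. None of the 7 had overlapping libraries, where 73.5% of all genes did not overlap. Rab9a, of transport from endosomes to the Golgi, was nearest to 0 among them (log2 FC -0.34, adjusted p = 0.327). Of the ciliary Rabs, Rab28 held 1060 and 849 against 3160 and 1773 (log2 FC 1.37, SE 0.33, adjusted p = 0.0331), and Rab23, of Hedgehog signalling, had a log2 FC of 0.54 (adjusted p = 0.204). Rab40c, the relative of Rab40b, held 550 and 474 against 407 and 336 (log2 FC -0.46, SE 0.25, 95% interval -1.11 to 0.19, adjusted p = 0.21). Under 20 reads, Rab17 had 1 read and Rab38 had 2 reads, all in hrPC12, and Rab25 had 1 and 1 in wtPC12 and 9 and 8 in hrPC12.

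**Figure D4:**
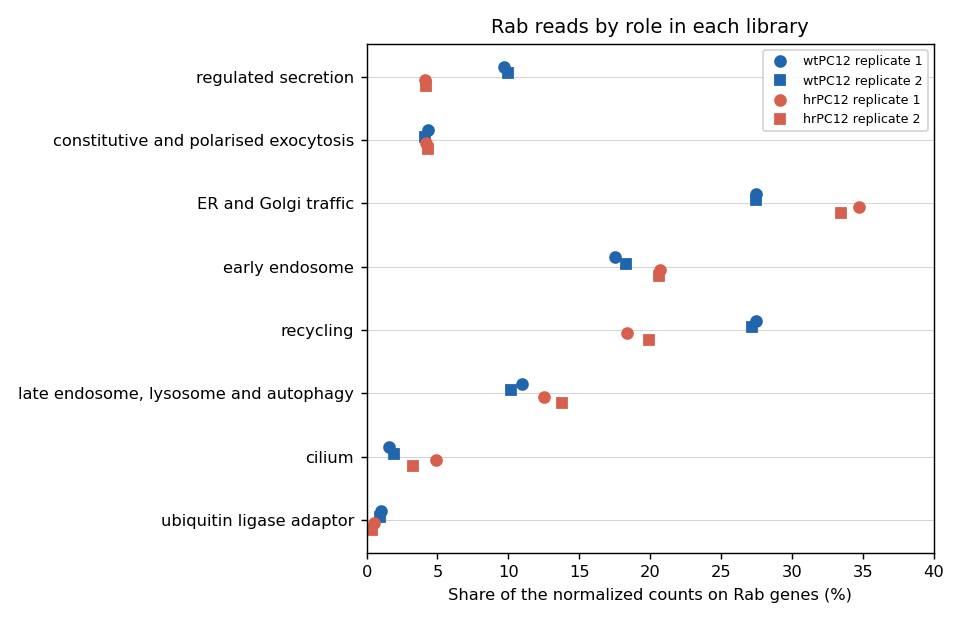
Share of all normalized counts on described Rab genes taken by each role, in percent, with one point per library (blue wtPC12, red hrPC12). Regulated secretion and recycling are lower in both hrPC12 libraries, recycling through Rab15, and ER and Golgi traffic is higher.

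All described Rab genes together held nearly the same share of the raw reads on genes, 0.424% and 0.417% in wtPC12 and 0.384% and 0.408% in hrPC12. Their normalized counts summed to 103376 and 94448 in wtPC12 and 88571 and 89347 in hrPC12, a 1.11-fold lower mean in hrPC12. Within that sum regulated secretion took 9.66% and 9.97% in wtPC12 and 4.10% and 4.20% in hrPC12, and recycling 27.4% and 27.2% against 18.4% and 19.9%. The recycling difference lay in Rab15, which took 11.3% and 11.9% in wtPC12 and 3.48% and 3.65% in hrPC12, while the other 6 recycling Rabs overlapped, at 16.1% and 15.3% against 14.9% and 16.3%. ER and Golgi traffic took 27.4% and 27.4% in wtPC12 and 34.7% and 33.5% in hrPC12, and early endosomes 17.5% and 18.3% against 20.7% and 20.6%. The early endosome Rabs summed to 18086 and 17258 normalized counts in wtPC12 and 18347 and 18431 in hrPC12. Rab31, counted among them, held 341 and 307 against 1756 and 999.7. Shares of one sum are not independent of each other. Between paralogs, the read ratio of Rab33a to Rab33b was 1.02 and 0.760 in wtPC12 and 0.162 and 0.175 in hrPC12, that of Rab40b to Rab40c 0.928 and 0.865 against 0.141 and 0.111, and that of Rab2a to Rab2b 3.31 and 2.94 against 11.4 and 13.4. In each of these pairs the ratios of the clones did not overlap, as also for Rab11a to Rab11b and Rab4a to Rab4b among others, but not for Rab8b to Rab8a. Lack of overlap is common with 2 libraries per clone, since the levels of 73.5% of all genes did not overlap.

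Between the 2 libraries of a clone the median absolute log2 difference over the 48 tested Rab genes was 0.28 in wtPC12 and 0.13 in hrPC12. Over all genes tested it was 0.39 and 0.18, so the wtPC12 libraries lay further apart. The libraries of hrPC12 differed in places along the genome. For 9 of the 47 Rab genes that could be placed on GRCr8, hrPC12 replicate 1 exceeded replicate 2 by more than 0.4 on the log2 scale. So did 18.5% of the 7732 tested genes with a mean of at least 50 normalized counts in hrPC12. That limit was not set for the Rab genes, so the shares are not like for like. Among the 9, Rab3c, Rab27b, Rab40b and Rab44 lay under it, Rab3c at 5 and 2 reads and Rab44 at 2 and 1. For Rab3c, Rab28, Rab34, Rab40b and Rab27b, the median of the nearest genes was higher in replicate 1 too, at 1.84-fold for Rab3c, 1.71-fold for Rab28, 1.81-fold for Rab34 and 1.73-fold for Rab40b. For Rab30, Rab31, Rab1b and Rab44 it was not, at 0.965, 0.98, 0.918 and 0.951. Rab9a and Rab22a had neighbours higher in replicate 1, at 1.70-fold and 1.46-fold, and were themselves at 0.796 and 0.904. Without hrPC12 replicate 1 the log2 FC was -8.75 for Rab3c, -3.62 for Rab40b and 0.89 for Rab28, and 1.63 (adjusted p = 0.00485) for Rab31, which then passed the adjusted p but not the fold.

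Of the 136 genes listed for Rab effectors and regulators, 95 were found and 94 tested, and 5 were lower and 6 higher, 5.32% and 6.38%, close to the background of 5.46% and 4.84%. Of the 14 genes listed as Rab3 and Rab27 effectors 4 were lower and 2 higher, with a median log2 FC of -0.81. The list also takes in RIM and ERC genes of the active zone, and binding to Rab3 or Rab27 was not checked for each gene. Sytl4 (granuphilin), a Rab27a effector of granules, held 2671 and 3617 normalized counts in wtPC12 and 62.6 and 85.0 in hrPC12. This was a 42.6-fold difference (log2 FC -5.41, SE 0.31, adjusted p = 0.000626). Rph3al (Noc2), a Rab3 and Rab27 effector of endocrine granules, held 492 and 608 against 24.6 and 10.1 (log2 FC -4.96, SE 0.50, adjusted p = 0.00265). Rph3a (rabphilin) held 168 and 306 against 5.08 and 0 (adjusted p = 0.00838), with 6 reads in hrPC12. Rims4, of the RIM family of active zones, had 112 and 279 reads in wtPC12 and 0 and 1 in hrPC12, a 463-fold ratio with a counting interval of 82.7 to 18351.

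Higher among the listed effector genes were Sytl5 and Erc2. Sytl5, another synaptotagmin-like Rab27 effector, had 1 and 2 reads in wtPC12 and 51.6 and 36.4 normalized counts in hrPC12, a 27.3-fold read ratio (interval 9.06 to 135). Erc2, of the active zone, had 3 and 1 reads in wtPC12 and 122 and 97.1 normalized counts in hrPC12, 50.6-fold (interval 19.5 to 187). The listed effector genes that missed a threshold were Myrip (log2 FC -2.97, adjusted p = 0.012), Mlph (17 and 12 reads against 1 and 0), Rims2 (-1.64, adjusted p = 0.0197), Sytl3 (1 and 1 reads against 25 and 11), Unc13d (2.33, adjusted p = 0.0273), Erc1 (1.27), Rims3 (0.53) and Sytl1 (0.02). Madd, the exchange factor of Rab3 and Rab27, held 5884 and 8244 normalized counts in wtPC12 and 1782 and 1767 in hrPC12, and at a log2 FC of -1.99 (SE 0.22, adjusted p = 0.0036) it passed the adjusted p and stood just under the fold threshold.

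The rest of the machinery had medians near 0, with 0.31 for the 29 other effectors, 0.03 for the 18 exchange factors, 0.11 for the 27 GTPase activating proteins and 0.11 for the 6 prenylation, GDI and kinase genes. Lower was Sgsm3, a TBC domain protein, at 8121 and 7139 normalized counts against 1465 and 1558 (log2 FC -2.34, SE 0.18, adjusted p = 0.00115). Higher were Myo5b, a motor that binds Rab11 and Rab8, at 1 read in wtPC12 against 75.3 and 55.7 normalized counts (read ratio 121-fold, interval 21.5 to 4832), and Rin3, an exchange factor of Rab5 proteins, at 1.16 and 6.18 against 313 and 295 (log2 FC 6.28, SE 0.62, adjusted p = 0.00245). Dennd2a, an exchange factor with a DENN domain, held 81.4 and 109 against 612 and 674 (log2 FC 2.75, SE 0.29, adjusted p = 0.00306), and Rabgap1l, a GTPase activating protein, 270 and 480 against 3279 and 2713 (log2 FC 2.997, SE 0.34, adjusted p = 0.00378). Gdi2, which extracts inactive Rabs from membranes, had a log2 FC of 0.35 (adjusted p = 0.17). Without wtPC12 replicate 1 the calls of Rph3a (adjusted p = 0.011), Sytl5 (adjusted p = 0.0218) and Myo5b (adjusted p = 0.0106) were lost, and Madd (log2 FC -2.25, adjusted p = 0.00243), Rims2 (-2.02, adjusted p = 0.00473) and Myrip (-3.47, adjusted p = 0.00321) were called lower. Myrip was also called without hrPC12 replicate 1 (adjusted p = 2.32e-05) and Madd without hrPC12 replicate 2 (adjusted p = 0.00445). Without wtPC12 replicate 2 none of the 11 machinery genes was called. Leaving out 1 library moved the log2 FC of Rin3 between 5.56 and 7.89, the former without wtPC12 replicate 1 and the latter without wtPC12 replicate 2. The log2 FC of Erc2 moved between 4.92 and 6.54, that of Myo5b between 5.80 and 6.77, that of Rims4 between -8.98 and -7.51, that of Rph3al between -5.75 and -4.53 and that of Rph3a between -6.79 and -5.56. For Myo5b, Rims4 and Rph3a only 3 of the 4 fits entered, since the other left 1 clone without reads and the gene untested.

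**Figure D5:**
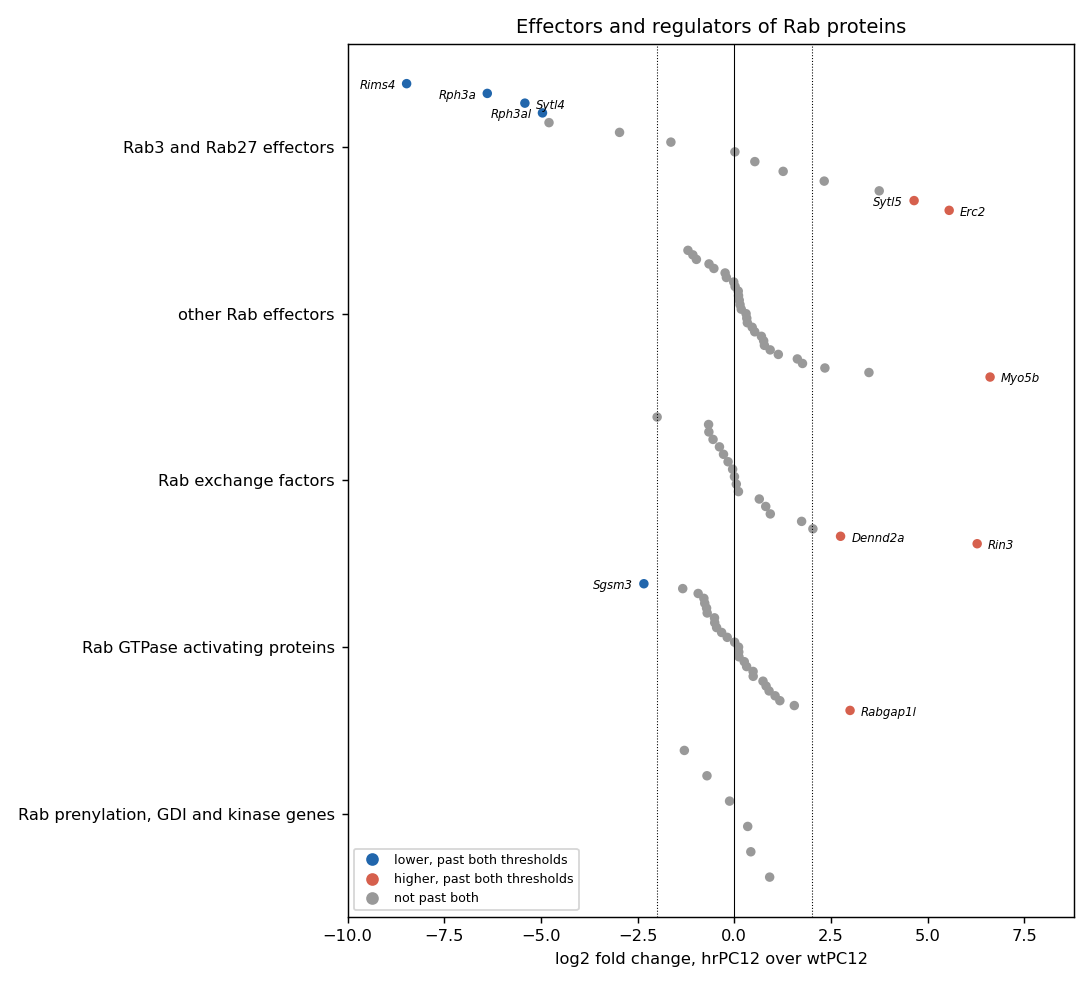
The log2 FC (hrPC12/wtPC12) of the 94 tested genes of Rab effectors and regulators, one point per gene, with the role on the vertical axis and dotted lines at a log2 FC of 2 in either direction. The 5 blue points are lower and the 6 red points are higher past both thresholds. Of these 11 genes, 6 are among the 14 listed as Rab3 and Rab27 effectors.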

How the data were processed

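TruSeq RNA libraries of 2 wtPC12 and 2 hrPC12 samples were analysed as read counts per gene. The authors deposited raw counts, 1 per gene and library, made from reads aligned to build rn4, and the submitters' processing notes name TopHat2 2.0.4, HTSeq 0.5.3 and DESeq 1.9.12. Their deposited comparison of the clones (means, fold changes and p values) was not used. Rows that name no gene, 58.7 to 62.1% of reads, were left out. Genes averaging under 5 normalized counts, or without reads in 1 of the clones, were filtered out, and 13726 genes were tested with edgeR 4.0.16 (TMM, quasi-likelihood test, legacy option on, R 4.3.3, limma 3.58.1) and Benjamini-Hochberg adjustment. DE genes had a log2 FC past 2 with an adjusted p under 0.01. Scripts were tested on simulated data. Normalized counts are counts scaled by effective library size to their mean. Counting intervals cover counting error only. The libraries of a clone differed by more than sampling noise, so none was a duplicate.

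The members and gene lists were chosen with earlier results of these data known. Named were all secretion Rabs, genes past both thresholds or the adjusted p, the members with the largest and smallest change in each role, all genes listed as Rab3 and Rab27 effectors, Madd and Gdi2. Some genes that this rule or the lists cover are not reported here. Rab2a, Rab2b, Rab4a, Rab7a, Rab11a, Rab33b, Rab1b, Rab30 and Rab44 were named after their values were seen where that rule does not take them. Promoters were taken from RefSeq (GRCr8), not from the build of the counts. Alternatives were RLE factors, library totals, every gene with a read, filterByExpr, DESeq2 1.42.0, the legacy option off, an adjusted p under 0.05, a log2 FC past 1, and each library left out in turn.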

Additional observations from a re-analysis of the deposited data

How the results depend on the processing

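The 6 lower Rab genes stayed at 6 to 7 under RLE factors, library totals, every gene with a read, filterByExpr, DESeq2, the legacy option off and an adjusted p under 0.05, and became 8 with a log2 FC past 1. The 2 higher Rab genes became 4 with RLE factors, library totals, every gene, DESeq2 or an adjusted p under 0.05 and 3 with filterByExpr, the added genes being Rab30 and, except with filterByExpr, Rab31. Calls rose over the whole table too. Over all genes, the 665 higher genes became 870 with RLE factors, 902 with library totals and 879 with DESeq2. They became 873 with filterByExpr and 1127 of the 18416 tested with every gene. The 749 lower genes became 901, 835, 909, 844 and 977 in the same order. The machinery genes became 8 lower with RLE factors and 11 higher with an adjusted p under 0.05. With each library left out in turn the counts ranged from 0 to 6 for lower Rab genes, 0 to 3 for higher Rab genes, 0 to 3 for lower secretion Rabs, 0 to 7 for lower machinery genes and 0 to 8 for higher ones, each 0 coming from the fit without wtPC12 replicate 2, and the cause was not tested. Changes of sign were found near 0. With RLE factors the log2 FC was -0.039 for Rab11b, -0.00847 for Rab18, -0.00655 for Rab5b and -0.024 for Sytl1, with DESeq2 -0.034 for Rab11b, -0.00392 for Rab18 and -0.00198 for Rab5b, and with library totals 0.034 for Rab6a. Leaving out 1 library gave ranges of -0.25 to 0.28 for Rab11b, -0.081 to 0.12 for Rab18, -0.044 to 0.063 for Rab5b, -0.12 to 0.013 for Rab6a, -0.029 to 0.27 for Rab14, -0.066 to 0.15 for Rab21, -0.31 to 0.080 for Rab4b, -0.23 to 0.033 for Rab8a, -0.52 to 0.45 for Rab8b, -0.19 to 0.24 for Sytl1, and -0.060 to 1.46 for Rims3. Sytl1 was tested in only 3 of these 4 fits. Summing Rab1b with RAB1B_RAT, chosen after seeing the data, gave -0.031. The median log2 FC of all genes lay between -0.01 and 0.16 over the settings. No paired analysis was possible because the sample titles carry no replicate number common to both clones, and the numbers 1 and 2 used here only follow the order of deposit and tie no library of one clone to a library of the other. Depth limits Rab27b and Rab44, which rest on 22 and 32 reads in all.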
